A study of Mus musculus with 12 samples.

Results

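The ribosomal protein pseudogenes described here have the symbol of a numbered ribosomal protein gene (Rpl, Rps or Rplp and a number) followed by -ps. Copies of Rpsa, whose symbol has no number, are not among them. The pseudogenes were chosen by that name and by a value above 0 TPM in at least 1 heart sample. TPM (transcripts per 1000000) corrects the reads of a gene for its length and states them as a part of all transcripts of the sample. Of 269 such names in the deposited tables, 159 met the rule, against 22948 genes above 0 TPM among all 33641 listed, and the other 110 were listed at 0 in every sample. They belong to 46 parents, the working ribosomal protein genes from which they take their names, and the parent with the most was Rpl21 with 11. RNA was sequenced from the left (LV) and right (RV) ventricles of mouse hearts, with 3 samples in each of 4 groups: LV of WT-PLN, RV of WT-PLN, LV of R14del-PLN and RV of R14del-PLN. All mice carried the coding sequence of human phospholamban (PLN, the small inhibitor of the calcium pump SERCA2a) inserted at exon 2 of mouse Pln. R14del-PLN mice carried the human sequence without arginine 14 on 1 allele and the human WT sequence on the other, and WT-PLN mice carried the WT sequence. The labels give the strain as C57BL/6J and the age as 12 to 14 weeks. The methods describe male mice of a hybrid line of 129/Sv-CP and C57Bl/6J origin bred through Sox2-Cre mice, in which Cre acts in the early embryo.

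A processed pseudogene forms when a messenger RNA is copied into DNA and inserted elsewhere in the genome, so that it lacks introns and usually a promoter. Ribosomal protein genes are among the most frequent sources, since their messengers are short and abundant in all tissues. A young copy can match its parent letter for letter, and a short sequencing read from the parent's messenger then fits both places. A TPM value for such a copy is therefore a statement about where reads were assigned, and for near-identical copies the split between parent and pseudogene is uncertain. The values below give the pseudogene, its parent and their sum side by side.

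Depth could not be judged, since the values of each sample sum to 1000000 and hold no read numbers, so a gene without a value is called listed at 0. Summed markers of cardiomyocytes (Myh6, Actc1, Tnnt2, Myl2 and Myl3) were between 28620 and 44090 TPM, which fits ventricular muscle, and the summed atrial markers Myl7, Myl4 and Sln ranged from 3.75 to 659 TPM. Summed markers of fibroblasts were at 200 to 424 TPM, of endothelial cells at 50.2 to 92.8 TPM, of smooth muscle at 27.1 to 144 TPM, of immune cells at 6.25 to 14.9 TPM and of red cells at 601 to 1418 TPM. In whole tissue, fewer cells of a type and less RNA per cell cannot be told apart. Replicate 1 of WT-PLN stood apart in both ventricles, with the Y-linked gene Ddx3y at 0.0217 TPM in LV and 0.0703 TPM in RV against 15.8 to 24.9 TPM in the other 10 samples, although the methods name male mice. In LV replicate 3 of R14del-PLN, mitochondrially encoded genes took 37.3% of TPM, against 44.0% to 54.5% in the other 11 samples. RV replicate 3 of R14del-PLN carries the number of another sequencing run, which cannot be told apart from that sample. Results that rest on these samples are given with and without them.

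The sequences that carry the main result are those of Rpl34 and its pair of named pseudogenes. Rpl34 encodes a protein of the large ribosomal subunit and lies on chromosome 3 from 130726831 to 130730398 on the minus strand of GRCm38. Rpl34-ps1 (chr6:71124610-71124963, plus strand) and Rpl34-ps2 (chr13:116153781-116154134, plus strand) are annotated as processed pseudogenes, overlap no other annotated gene and match all 354 bases of the Rpl34 coding sequence without a gap. Positions are counted from 1 at the A of the ATG of Rpl34, and bases 55 to 354 are shown from the GENCODE transcripts of GRCm38, with capitals where a pseudogene differs from Rpl34.
Rpl34: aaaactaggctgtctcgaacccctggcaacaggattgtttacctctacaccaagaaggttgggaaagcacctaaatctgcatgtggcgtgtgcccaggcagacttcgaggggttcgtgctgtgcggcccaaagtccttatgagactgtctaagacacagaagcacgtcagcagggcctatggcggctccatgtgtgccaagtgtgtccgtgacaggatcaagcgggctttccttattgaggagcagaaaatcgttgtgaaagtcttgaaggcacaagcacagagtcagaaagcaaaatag
Rpl34-ps1: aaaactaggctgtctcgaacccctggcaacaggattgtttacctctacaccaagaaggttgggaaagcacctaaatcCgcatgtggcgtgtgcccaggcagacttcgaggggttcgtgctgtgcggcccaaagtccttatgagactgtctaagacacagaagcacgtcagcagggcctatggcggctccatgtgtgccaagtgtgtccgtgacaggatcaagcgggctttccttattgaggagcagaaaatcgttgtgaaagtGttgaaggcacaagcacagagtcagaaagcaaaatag
Rpl34-ps2: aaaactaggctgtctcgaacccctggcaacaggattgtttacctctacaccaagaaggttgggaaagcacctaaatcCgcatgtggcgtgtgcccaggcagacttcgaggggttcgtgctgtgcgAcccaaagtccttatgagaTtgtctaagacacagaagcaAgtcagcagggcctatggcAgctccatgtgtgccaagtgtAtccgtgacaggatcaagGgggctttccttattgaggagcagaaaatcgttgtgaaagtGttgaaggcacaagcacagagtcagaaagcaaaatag
Rpl34-ps1 differs from Rpl34 by 2 substitutions, T132C and C318G, and is 99.4% identical to it. Rpl34-ps2 has both of these and 8 more, of which C22T and C25T lie before the stretch shown, and is 97.2% identical. The reading frame is uninterrupted in both copies.

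Most of these pseudogenes were barely represented in the heart, and a few were at the level of working ribosomal protein genes. Averaged over the 12 samples, 14 of the 159 were at 50 TPM or more, 9 between 1 and 50 TPM, 4 between 0.5 and 1 TPM and 132 below 0.5 TPM. The 10 highest held 81.1% of the pseudogenes' summed TPM, and the 27 whose mean reached 0.5 TPM held 99.6%. Only 19 were above 0 in all 12 samples, and 35 were above 0 in a single sample. Of the 132 low pseudogenes, 1 reached 1 TPM in any sample, and the highest value among them was 1.305 TPM. The summed TPM of the pseudogenes was 2496 ± 155 in WT-PLN LV, 2120 ± 40.4 in WT-PLN RV, 2334 ± 215 in R14del-PLN LV and 1903 ± 481 in R14del-PLN RV (SD, n = 3 per group). As a share of the pseudogenes and their parents together, this was 19.1% ± 1.03 in WT-PLN LV, 19.6% ± 0.634 in WT-PLN RV, 19.8% ± 1.07 in R14del-PLN LV and 19.5% ± 2.61 in R14del-PLN RV (SD, n = 3 per group). The lowest share was 16.5%, in RV replicate 2 of R14del-PLN, and the 4 groups overlapped.

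**Figure D1:**
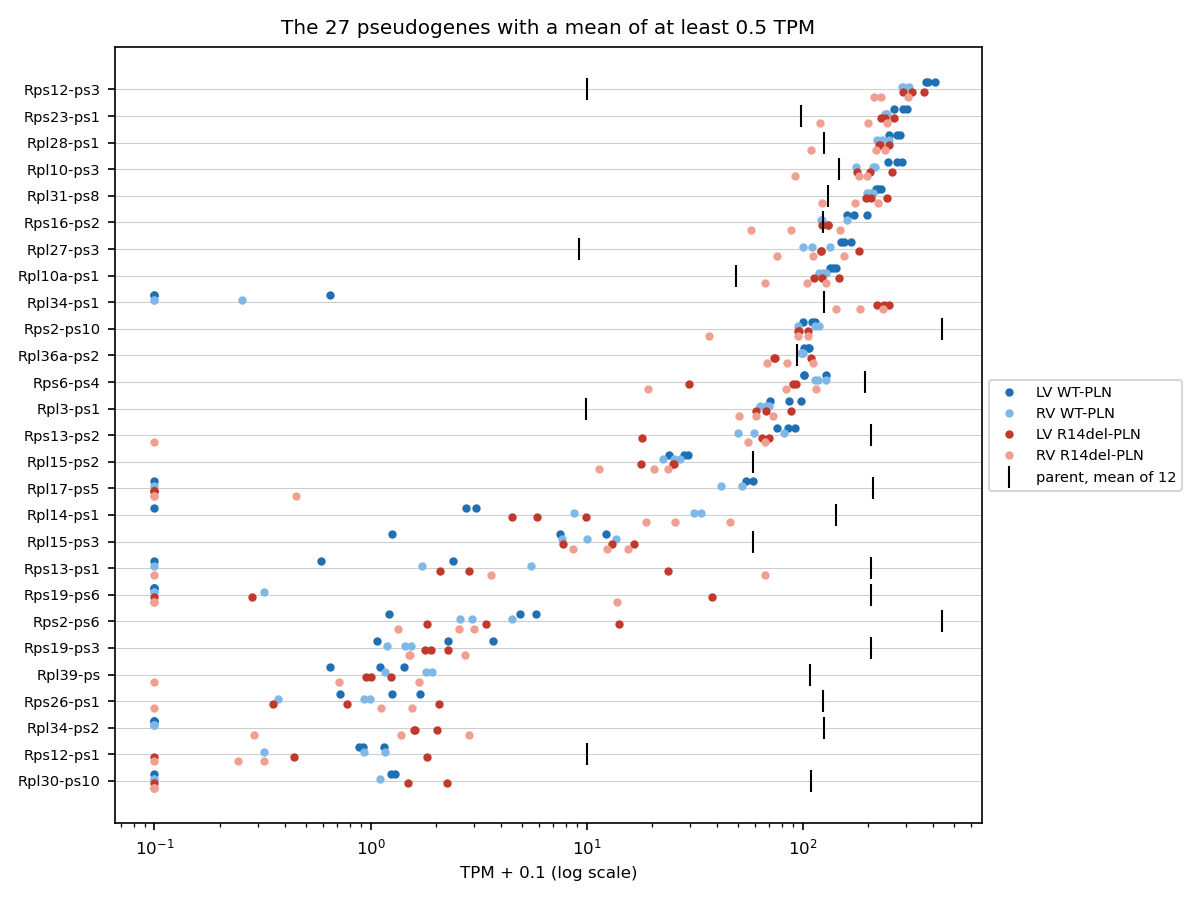
Values of the 27 pseudogenes whose mean reached 0.5 TPM in each of the 12 samples (points, coloured by group) and the mean of the parent over 12 samples (black bars), on a log axis of TPM + 0.1, with 0 at the left edge. Rpl34-ps1 splits by genotype, with all 6 WT-PLN points at or below 0.549 TPM and all 6 R14del-PLN points at or above 143 TPM.

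The highest pseudogene was Rps12-ps3, with a mean of 315 TPM over 12 samples (range 213 to 409), while its parent Rps12, a gene of the small subunit, was at 9.91 TPM. The same order held for Rpl27-ps3, at 132 TPM against 9.14 TPM for Rpl27, a gene of the large subunit. Both pseudogenes were above their parents in all 12 samples. In all, 10 pseudogenes had a mean above that of their parent, and 6 were above it in every sample.

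Other small-subunit copies among the 10 highest were Rps23-ps1 at 241 TPM (parent 98.3 TPM), Rps16-ps2 at 134 TPM (parent 124 TPM) and Rps2-ps10 at 98.7 TPM, as means over 12 samples. Large-subunit copies were Rpl28-ps1 at 232 TPM (parent 125 TPM), Rpl10-ps3 at 210 TPM (parent 147 TPM), Rpl31-ps8 at 204 TPM (parent 131 TPM), Rpl10a-ps1 at 122 TPM (parent 49.0 TPM) and Rpl34-ps1 at 106 TPM. Apart from Rpl34-ps1 and Rps2-ps10, the 10 highest were above their parents in the mean. For Rpl34-ps1 this mean pools genotypes that stood far apart, and it was above its parent in every R14del-PLN sample. The annotation lists Rps12-ps3 and Rpl10-ps3 as protein-coding genes despite their names, and it lists 4 of the 159 so, with 150 as processed and 5 as transcribed processed pseudogenes.

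What the high pseudogenes shared was sequence. Of the 159, 157 could be aligned with the parent's coding sequence in the sense direction. Over the aligned bases, 12 had no substitution or gap, the means of all 12 were at or above 0.5 TPM, and the lowest of them, Rpl15-ps3 (chosen after its values were seen), had a mean of 10.5 TPM. The 12 include 8 of the 10 highest pseudogenes, among them Rps12-ps3, Rpl28-ps1 and Rpl27-ps3. The median identity to the parent was 99.6% in the 27 pseudogenes at or above 0.5 TPM and 98.1% in the 130 aligned ones below it. The reading frame of the parent ran uninterrupted from its ATG to its stop codon in 17 of the 27 and in 49 of the 130. All 50-base windows of the transcript also occurred in another annotated transcript for 13 of the 27 and 9 of the 132, and the median share of windows found nowhere else was 3.36% and 50.3%. These counts are descriptions of groups set by level, and a window shared with the parent leaves a read of that length unplaced.

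**Figure D2:**
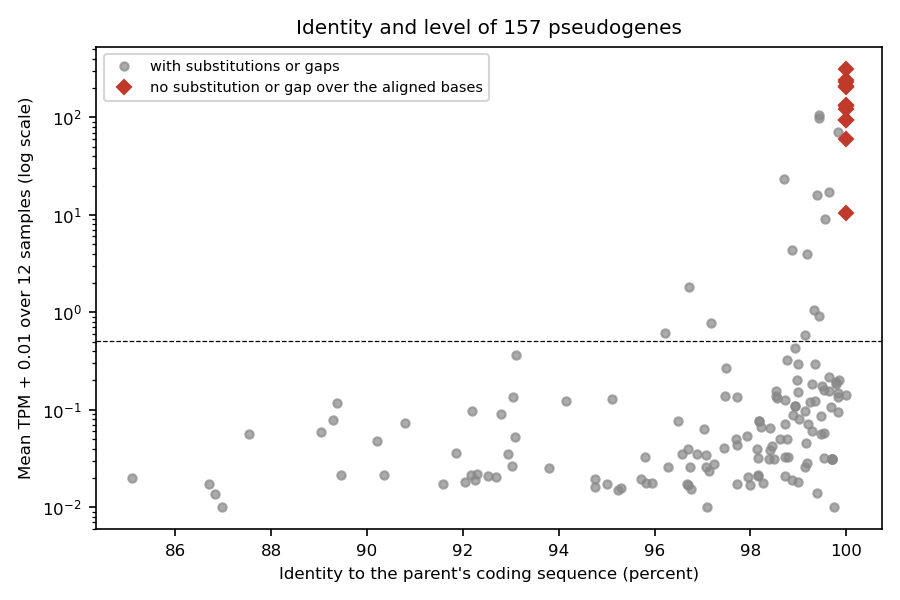
Identity of each of the 157 aligned pseudogenes to the parent's coding sequence (percent) against its mean TPM + 0.01 over 12 samples on a log axis, with a dashed line at a mean of 0.5 TPM. The 12 copies with no substitution or gap (red) all lie above the line, between 10.5 and 315 TPM, and many copies above 98% identity lie below it.

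Position gave a different picture. Of the 159, 93 overlapped no other annotated gene, 44 lay in an intron of a gene on the opposite strand and 18 in an intron on the same strand. Only 7 were on the chromosome of their parent. Among the 27 at or above 0.5 TPM, 15 overlapped no gene and 9 lay in an intron on the opposite strand, such as Rpl28-ps1 (chr1:128038569-128038982, plus strand) in Zranb3 and Rps12-ps3 (chr19:59322290-59322783, plus strand) in Pdzd8. Rps23-ps1 (chr3:37714740-37715164, plus strand) overlapped an exon of Gm5148 on the opposite strand, and whether reads were counted by strand is not stated in the sources used here.

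For each pseudogene, its share of the family was taken as its TPM divided by the summed TPM of the parent and all pseudogenes named after it. Annotated copies under other names were left out, and some were high. Gm11518 matches the Rpl27 coding sequence at 100% over 411 bases and had a mean of 123 TPM, near that of Rpl27-ps3. Rps12l1 matches Rps12 at 100% over 399 bases and had a mean of 9.65 TPM. Rps12-ps3 held 95.5% to 98.0% of its family and Rpl27-ps3 90.5% to 94.3% over the 12 samples. Rpl28-ps1 held 62.4% to 66.9%, Rpl10a-ps1 66.5% to 77.0% and Rps16-ps2 45.2% to 56.3%. In these 5 families the share stayed within a narrow range in all 12 samples.

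RV replicate 2 of R14del-PLN departed from that proportion in other families. Rpl10-ps3 held 28.4% of its family there against 51.6% to 68.1% in the other 11 samples, and Rps23-ps1 47.8% against 64.6% to 74.4%. The parents of this pair were not low with them. Rpl10 was at 232 TPM in this sample against 85.2 to 211 TPM in the others, and Rps23 at 131 TPM against 71.0 to 145 TPM. Other parents of the 10 highest pseudogenes differed. Rps12, Rpl28, Rps16, Rpl10a and Rps2 had their lowest value of the 12 samples there, and Rpl31, Rpl27 and Rpl34 did not. Of the 27 pseudogenes at or above 0.5 TPM, 14 had their lowest value of all 12 samples in this one. Rpl17-ps5, Rps19-ps6 and Rpl30-ps10 were also at 0 there, tied with other samples, and are not in that count. Low values there were not confined to pseudogenes. Summed over the 46 parents, TPM was also lowest in this sample, at 7158, and RV replicate 3 of R14del-PLN came next at 7282. The pseudogenes summed to 1411 and 1926 TPM in this pair of samples, and all 81 ribosomal protein genes to 14290 and 14180 TPM. The mitochondrially encoded share of RV replicate 2 was 51.1% and its atrial marker sum 378 TPM. The part of either in these values was not tested.

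**Figure D3:**
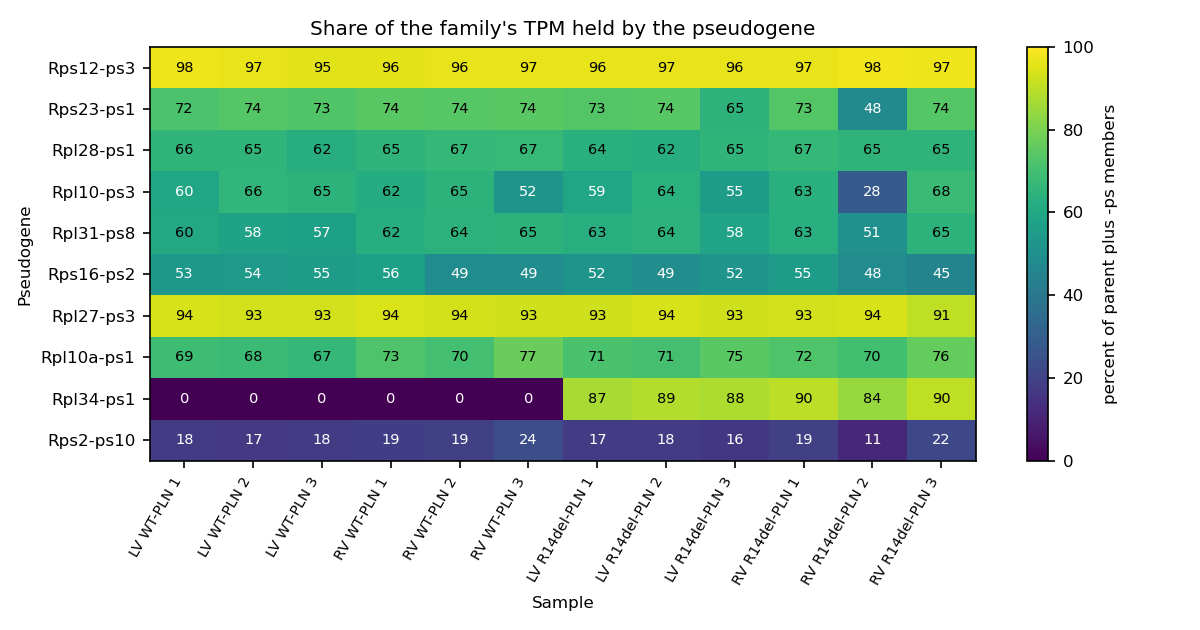
Share of the family's TPM (percent, number and colour) held by each of the 10 highest pseudogenes in each of the 12 samples. Copies under other names are not counted in the family. Rps12-ps3 and Rpl27-ps3 hold over 90% in every sample, Rpl34-ps1 holds 84.4% to 90.5% in R14del-PLN samples and at most 0.215% in WT-PLN samples, and RV R14del-PLN 2 has the lowest share of Rps23-ps1, Rpl10-ps3, Rpl31-ps8 and Rps2-ps10.

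The genotypes were compared within each ventricle. Rpl34-ps1 was higher and Rpl34 lower in R14del-PLN hearts in both ventricles, while their sum did not pass the test. In WT-PLN hearts, Rpl34-ps1 was at 0, 0 and 0.549 TPM in LV replicates 1 to 3 and at 0.154, 0 and 0 TPM in RV. The R14del-PLN values were 221, 236 and 250 TPM in LV and 236, 143 and 185 TPM in RV. All 6 R14del-PLN samples were far above all 6 WT-PLN samples, and the lowest among them was RV replicate 2.

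The parent ran the opposite way. Rpl34 was at 247, 242 and 255 TPM in LV and 214, 192 and 194 TPM in RV of WT-PLN hearts. The R14del-PLN values were 31.8, 28.7 and 32.8 TPM in LV and 22.9, 26.1 and 18.1 TPM in RV. The genotypes did not overlap for either gene in either ventricle.

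By limma with Benjamini-Hochberg adjustment over the 12526 genes whose mean reached 0.5 TPM, the log2 fold change of Rpl34-ps1 was 7.67 in LV (SE 0.20, adjusted p = 6.19e-11) and 7.46 in RV (SE 0.20, adjusted p = 8.92e-11). Fold changes refer to log2(TPM + 1), where the added 1 sets the size because WT-PLN samples are near 0. Rpl34 changed by -2.96 in LV (SE 0.13, adjusted p = 3.74e-08) and by -3.12 in RV (SE 0.13, adjusted p = 1.89e-08). The interaction of genotype and ventricle for Rpl34-ps1 was -0.21 (adjusted p = 1). Rpl34-ps1 was the pseudogene called in LV, 1 of the 27 tested, at a background of 0.519% of all genes, and in RV, again 1 of 27, at a background of 0.271%. Near 0 in WT-PLN samples, Rpl34-ps1 met the filter on the mean through its R14del-PLN values alone. Its place among the 27 thus depends on the genotype in which it is high.

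The sum of Rpl34, Rpl34-ps1 and Rpl34-ps2 was 248 ± 7.13 TPM in WT-PLN LV and 200 ± 12.1 TPM in WT-PLN RV (SD, n = 3 per group). R14del-PLN sums were 268 ± 15.3 TPM in LV and 212 ± 46.8 TPM in RV (SD, n = 3 per group). When each family was summed to 1 value and the whole table refitted with limma, the log2 fold change of the Rpl34 family was 0.11 in LV (95% interval -0.19 to 0.42, adjusted p = 0.872) and 0.06 in RV (95% interval -0.24 to 0.36, adjusted p = 1). Rpl34-ps1 held 86.9%, 88.7% and 87.8% of the family in LV and 90.2%, 84.4% and 90.5% in RV of R14del-PLN hearts.

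**Figure D4:**
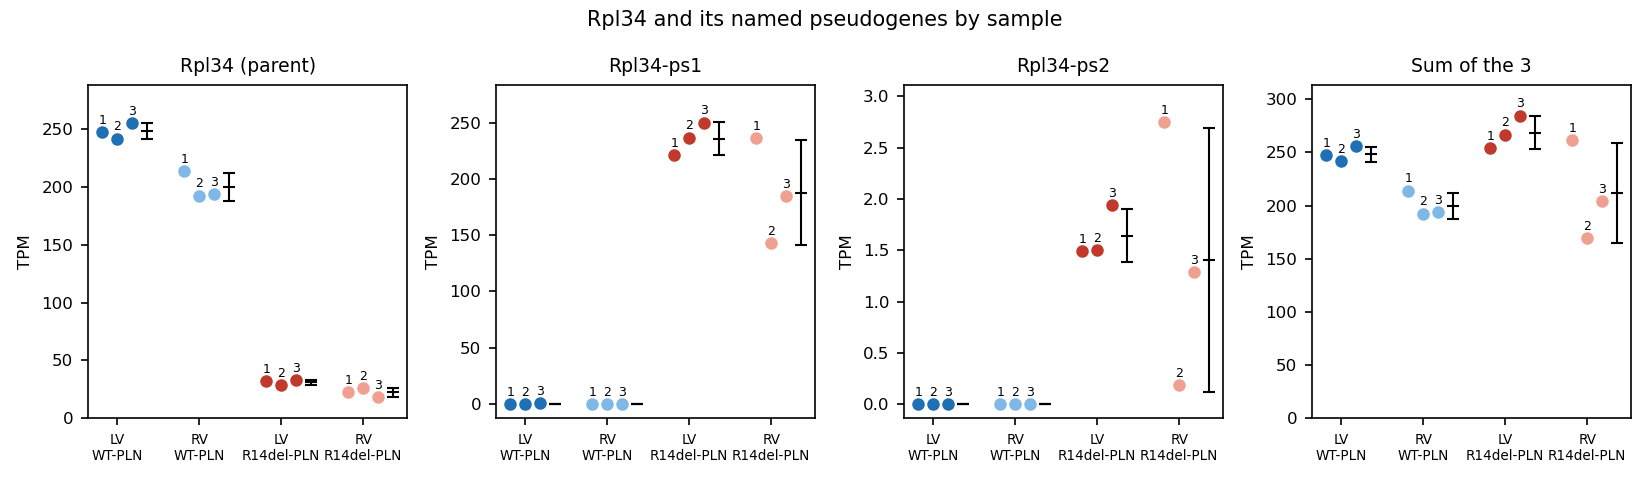
TPM of Rpl34, Rpl34-ps1, Rpl34-ps2 and their sum in each sample (points, numbered by replicate) with the mean and SD of each group (black bars, n = 3). Rpl34 and Rpl34-ps1 swap between genotypes, from about 192 to 255 TPM of Rpl34 in WT-PLN samples to 143 to 250 TPM of Rpl34-ps1 in R14del-PLN samples, and the sums of the genotypes lie close together.

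Rpl34-ps2, which shares both substitutions of Rpl34-ps1 and was chosen after its values were seen, followed the genotype at a much lower level. It stood at 0 in each of the 6 WT-PLN samples. With R14del-PLN it was at 1.49, 1.503 and 1.94 TPM in LV and at 2.75, 0.188 and 1.29 TPM in RV. Its log2 fold change was 1.40 in LV (SE 0.28, limma adjusted p = 0.0515) and 1.12 in RV (SE 0.28, adjusted p = 0.182), so it did not pass the threshold of 0.05. Over the fits with each sample left out, the RV value ran from 0.72 to 1.55. It was highest without RV replicate 2 of R14del-PLN, where the gene was lowest (limma adjusted p = 0.00141). Leaving out the lowest sample raises the change and narrows the spread, so this pass is no support. At 0 in WT-PLN samples, Rpl34-ps2 met the filter on the mean through its R14del-PLN values alone.

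An all-or-none pattern by genotype was taken as 0 in all 6 samples of a genotype and above 0 in all 6 of the other, and Rpl34-ps2 was the pseudogene of the 159 that met it, at a background of 0.0305% of the 22948 genes above 0 TPM. With at most 0.5 TPM in a genotype and at least 1 TPM in the other, the count was 0 of 159 at a background of 0.0174%. Rpl34-ps1 missed this by 1 sample, LV replicate 3 of WT-PLN at 0.549 TPM.

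Among the other 26 pseudogenes tested, none was called in either ventricle. The median log2 fold change of the 27 was -0.18 in LV and -0.33 in RV, against -0.086 and -0.003 over all genes tested. At an unadjusted p of at most 0.05 there were 4 of 27 in LV and 6 of 27 in RV, against 1203 and 779 of all 12526. Without RV replicate 2 of R14del-PLN, the RV median of the 27 was -0.11 and that of all genes -0.05. For the 9 highest pseudogenes other than Rpl34-ps1, fold changes on the log2 scale ran from -0.46 for Rps16-ps2 to -0.05 for Rpl31-ps8 in LV and from -0.59 for Rps2-ps10 to -0.06 for Rpl27-ps3 in RV, with limma adjusted p between 0.603 and 1. The RV values changed when RV replicate 2 of R14del-PLN was left out, where Rps12-ps3 was at -0.15, Rps2-ps10 was at -0.11, Rps16-ps2 at -0.22, Rpl10-ps3 at -0.077, Rpl28-ps1 at -0.0308 and Rpl27-ps3 at -0.30. Rps12-ps3 was at 371, 380 and 409 TPM in LV and 310, 291 and 288 TPM in RV of WT-PLN hearts. The R14del-PLN samples were at 291, 320 and 366 TPM in LV and 307, 213 and 231 TPM in RV, so that the genotypes overlapped in RV and not in LV. Its log2 fold change was -0.25 in LV (95% interval -0.56 to 0.05) and -0.26 in RV (95% interval -0.56 to 0.04).

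The 132 pseudogenes below a mean of 0.5 TPM were read from a limma fit of all 22948 genes above 0 TPM, in which Rpl34-ps1 was again the one pseudogene of the 159 called in each ventricle, at a background of 0.0959% in LV and 0.0741% in RV. Values of the genotypes did not overlap for 13 of the 159 (8.18%) in LV, at a background of 9.32%, and for 5 (3.14%) in RV, at a background of 8.95%.

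Rpl17-ps5 is a copy of Rpl17, a gene of the large subunit, with 2 substitutions over its 555 bases (chr5:22612628-22613182, minus strand, in an intron of 6030443J06Rik on the opposite strand). In WT-PLN hearts it was at 0, 58.6 and 54.6 TPM in LV replicates 1 to 3 and at 0, 41.9 and 52.2 TPM in RV. Of the R14del-PLN samples, 5 were listed at 0 and RV replicate 1 was at 0.351 TPM. The pair of WT-PLN samples at 0 are those with Ddx3y near 0, and the part of this in the result was not tested.

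Its log2 fold change was -3.90 in LV (SE 1.49, limma adjusted p = 0.394) and -3.57 in RV (SE 1.49, adjusted p = 0.713). With LV replicate 1 of WT-PLN left out, the LV change passed the test. Without both WT-PLN samples of replicate 1, Rpl17-ps5 changed by -5.85 in LV (limma, adjusted p = 1.35e-09). The RV change was then -5.43 (limma, adjusted p = 2.42e-09), in a setting added after the values were seen. The samples left out are the WT-PLN samples at 0, so these passes follow from the choice and are no support for a change. The parent Rpl17 was at 264, 208 and 222 TPM in LV and 223, 175 and 181 TPM in RV of WT-PLN hearts, where replicate 1 was the highest in both ventricles. The family sum was 264, 268 and 278 TPM in LV and 224, 218 and 234 TPM in RV of the same hearts. In R14del-PLN hearts the family sum was 209, 211 and 258 TPM in LV and 225, 168 and 192 TPM in RV, and its log2 fold change was -0.26 in LV (limma, adjusted p = 0.542) and -0.21 for RV (adjusted p = 0.967).

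A pattern by number, 0 in both the LV and the RV sample of a number and at least 1 TPM in both samples of another number of the same genotype, was met by 2 of the 159 pseudogenes, Rpl17-ps5 and Rps19-ps6, at a background of 0.166%. Rps19-ps6, a copy of the small-subunit gene Rps19 with 5 substitutions, is on chromosome 12 from 110898114 to 110898551 in an intron of Tecpr2 on the same strand. It was at 37.8 TPM in LV and 13.7 TPM in RV of R14del-PLN replicate 3, and at most 0.2205 TPM in the other 10 samples. These 2 samples share a number, but in R14del-PLN hearts the numbers were not read as pairs, since the correlation of the deviations was 0.0542 for number 3. Rps19 was at 200 TPM in the LV and 158 TPM in the RV sample, within the range of 104 to 282 TPM over all samples. The log2 fold change of Rps19-ps6 was 1.84 in LV (limma, adjusted p = 0.692) and 1.20 for RV (adjusted p = 1). Without LV replicate 3 of R14del-PLN the LV value was 0.12, and without RV replicate 3 the RV value was -0.10.

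Within a group of 3, at least 1 sample at 0 and at least 1 at 1 TPM or more was found in some group for 9 of the 159 pseudogenes (5.66%), at a background of 1.11%. These were Rpl17-ps5 and Rps19-ps6, described above, and Rpl14-ps1, Rpl30-ps10, Rpl39-ps, Rps12-ps1, Rps13-ps1, Rps13-ps2 and Rps26-ps1, which are named after their values were seen. Of these, Rpl30-ps10, Rpl39-ps, Rps12-ps1 and Rps26-ps1 stayed at or below 2.16 TPM in every sample. The pair that reached the highest levels, Rps13-ps1 and Rps13-ps2, are copies of Rps13, a gene of the small subunit.

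Rps13 lies on chromosome 7 from 116331505 to 116334195 on the minus strand. Rps13-ps2 (chr7:88530446-88530898, minus strand) has no substitution in its 453 bases, and Rps13-ps1 (chr8:87047689-87048226, plus strand) has 2, T411C and A429G, counted from the A of the Rps13 ATG. Bases 361 to 453 hold both, and capitals mark the differences from Rps13.
Rps13: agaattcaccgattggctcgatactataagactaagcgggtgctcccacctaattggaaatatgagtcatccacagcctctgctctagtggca
Rps13-ps2: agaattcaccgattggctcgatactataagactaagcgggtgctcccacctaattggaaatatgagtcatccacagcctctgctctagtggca
Rps13-ps1: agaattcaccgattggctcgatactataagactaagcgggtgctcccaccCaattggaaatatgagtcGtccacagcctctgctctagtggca
Outside this stretch, Rps13-ps1 has no other difference from the coding sequence of Rps13.

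Rps13-ps2 was at 76.3, 91.8 and 85.2 TPM in LV and 59.6, 49.9 and 81.4 TPM in RV of WT-PLN hearts. The R14del-PLN samples were at 69.8, 64.9 and 17.9 TPM in LV and 55.6, 0 and 67.1 TPM in RV. LV replicate 3 and RV replicate 2 of R14del-PLN were thus far below the other 10 samples, which lay between 49.9 and 91.8 TPM.

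Rps13-ps1 was high in those samples and low elsewhere. It was at 23.7 TPM in LV replicate 3 and 66.5 TPM in RV replicate 2 of R14del-PLN, and between 0 and 5.43 TPM in the other 10 samples. The family sum was 326 and 205 TPM in these samples, against 234 to 334 TPM in the other 10. Rps13 itself was at 284 and 138 TPM there, the highest and the lowest of the 12 values.

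Rps6-ps4, a copy of the small-subunit gene Rps6 with no substitution (chr2:75191073-75191822, minus strand, chosen after its values were seen), was low in the same pair of samples. It was at 29.6 TPM in LV replicate 3 and 19.1 TPM in RV replicate 2 of R14del-PLN, against 83.9 to 128 TPM in the other 10 samples. Its share of the family was 9.18% and 8.94% there, against 29.4% to 42.7% elsewhere. Between genotypes, the log2 fold change of Rps6-ps4 was -0.79 in LV (SE 0.53, limma adjusted p = 0.708) and -1.05 in RV (SE 0.53, adjusted p = 0.860). Without both samples, a setting added after the values were seen, the values were -0.25 in LV and -0.28 in RV. The mitochondrially encoded shares of these samples were 37.3% and 51.1% and their atrial marker sums 3.75 and 378 TPM, and the part of either was not tested.

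**Figure D5:**
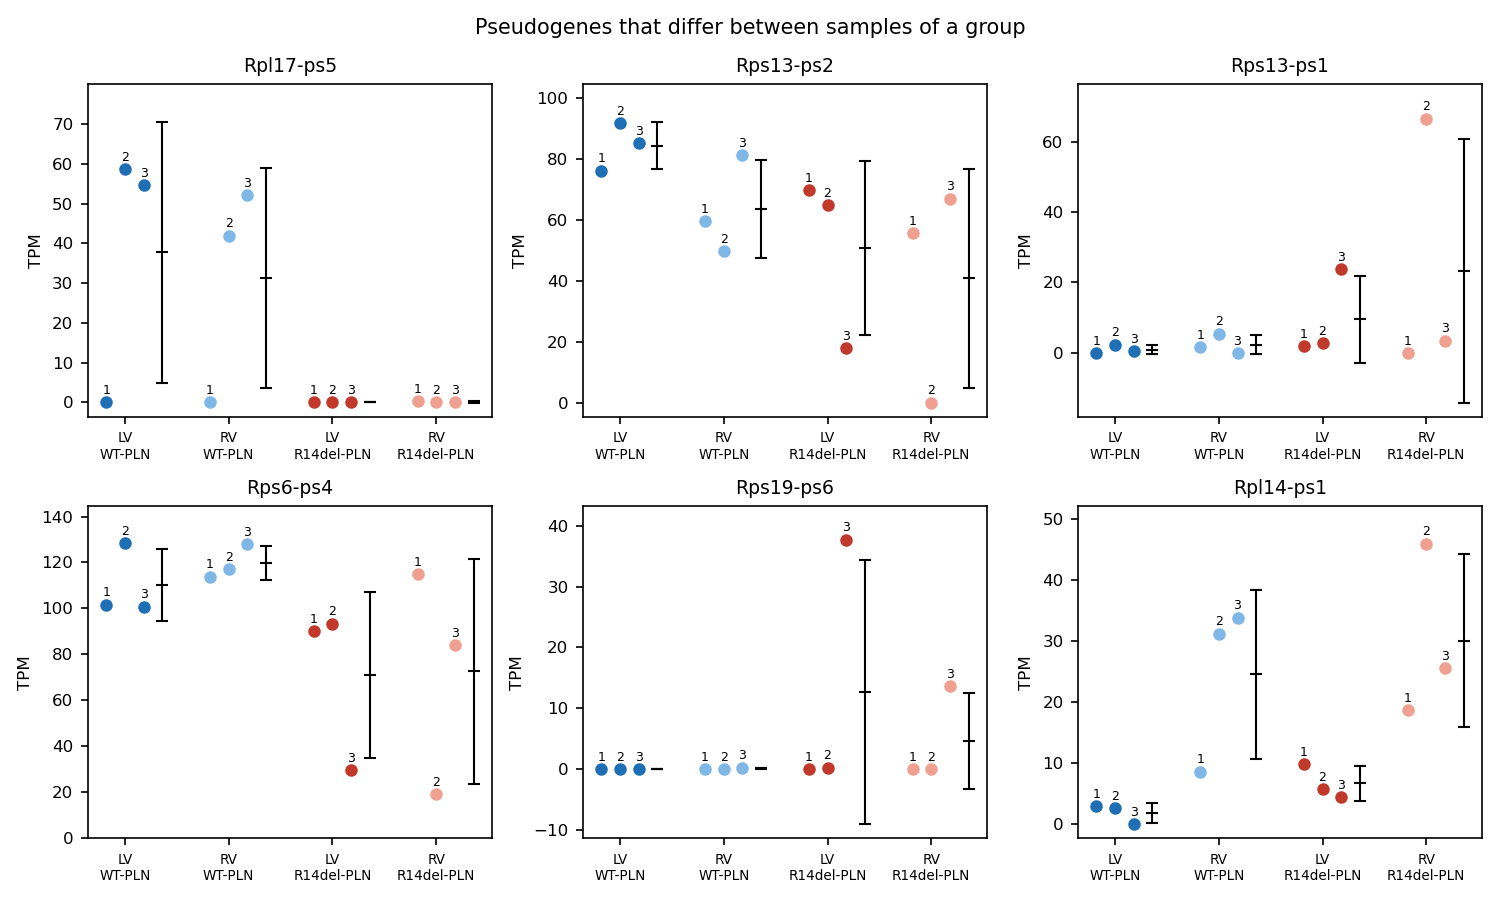
TPM of 6 pseudogenes in each sample (points, numbered by replicate) with the mean and SD of each group (black bars, n = 3). Rpl17-ps5 is at 0 in WT-PLN replicate 1 of both ventricles, Rps13-ps2 and Rps6-ps4 are low and Rps13-ps1 high in LV replicate 3 and RV replicate 2 of R14del-PLN, and Rpl14-ps1 is higher in RV than in LV in both genotypes.

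The ventricles were compared within each genotype. Of the 27 pseudogenes tested, 0 were called between RV and LV in WT-PLN hearts and 0 in R14del-PLN hearts by limma, at a background of 0.0% in each, with 2 and 4 of 27 at an unadjusted p of at most 0.05 against 1811 and 823 of all 12526 genes. The interaction of genotype and ventricle also gave 0 of 27 by limma at a background of 0.0%, with 0 at an unadjusted p of at most 0.05. The median log2 fold change of RV against LV over the 27 was -0.16 for WT-PLN hearts and -0.35 for R14del-PLN hearts, against -0.17 and -0.08 over all genes.

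Rpl14-ps1, a copy of the large-subunit gene Rpl14 with 4 substitutions and 1 gap, had the largest difference between ventricles of the 27 pseudogenes in WT-PLN hearts and was chosen after its values were seen. It lies on chromosome 7 from 45324965 to 45325617 in an intron of Trpm4 on the opposite strand. In WT-PLN hearts it was at 2.97, 2.67 and 0 TPM in LV and at 8.62, 31.3 and 33.9 TPM in RV. R14del-PLN samples were at 9.87, 5.80 and 4.43 TPM in LV and at 18.8, 46.0 and 25.6 TPM in RV. RV values were above LV values in both genotypes, and within each genotype the ventricles did not overlap. The share of all genes without overlap between ventricles was not counted.

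The log2 fold change of Rpl14-ps1 in RV against LV was 3.18 in WT-PLN (SE 0.56, limma adjusted p = 0.131) and 1.98 in R14del-PLN hearts (SE 0.56, limma adjusted p = 0.711). In WT-PLN hearts, the LV and RV samples of a number deviated together. A limma fit with the replicate number as a block called Rpl14-ps1 in WT-PLN hearts (adjusted p = 0.0436). This was 1 of the 27, at a background of 0.0958%. The block also paired the numbers of R14del-PLN hearts, which were not read as pairs, so this call depends on that pairing too. Without both WT-PLN samples of replicate 1, Rpl14-ps1 changed by 4.13 (limma adjusted p = 0.0369), 1 of the 27 again, at a background of 0.0159%. Those samples held its highest LV value and its lowest RV value in WT-PLN hearts. Leaving them out thus raises the change, so this pass is no support. Its parent Rpl14 had a log2 fold change of -0.40 in WT-PLN hearts (limma adjusted p = 0.271) and of -0.35 in R14del-PLN hearts (limma adjusted p = 0.737).

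The ribosomal protein genes as a class were set beside their pseudogenes. Of 81 cytosolic ribosomal protein genes, 1 was called between genotypes in LV and 1 in RV by limma, at the backgrounds of 0.519% and 0.271% of all genes, and in both cases it was Rpl34, which was lower in R14del-PLN hearts. Their median log2 fold change was -0.16 in LV and -0.20 in RV, and 7 and 11 of the 81 had an unadjusted p of at most 0.05, against 1203 and 779 of all 12526 genes. Among the 46 parents, Rpl34 was again the 1 called in each ventricle, and the medians were -0.17 and -0.20.

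Once each parent was summed with its pseudogenes, 0 of the 46 sums were called in LV and 0 in RV by limma, at a background of 0.504% and 0.256% of the refitted table, with 2 and 5 at an unadjusted p of at most 0.05. The median log2 fold change of the sums was -0.18 in LV and -0.20 in RV. The annotation also holds 320 copies of ribosomal protein genes under names outside the rule, those of Rpsa among them, that match at 95% identity or more. Of these, 228 are copies of the 46 parents. Adding the 228 to the sums gave 0 of 46 called in each ventricle by limma, at a background of 0.513% and 0.265%. At an unadjusted p of at most 0.05 there were 1 and 3.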

How the data were processed

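Strand-specific polyA libraries of 12 heart samples were sequenced and, per the methods, reads were mapped to GRCm38 with CLC Genomics Workbench. The authors deposited 1 TPM value per gene and sample, and the program, annotation and use of strand behind these values are not given in the sources used here. Groups and replicate numbers came from the sample labels, which do not say that samples are from separate animals, so p-values measure the spread between these samples.

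The deposited TPM were used without rescaling. Fold changes were tested with limma 3.58.1 in R 4.3.3 on log2(TPM + 1), with 4 group means in 1 model of 12 samples, empirical Bayes with an intensity trend (8 residual degrees of freedom), a filter at a mean of 0.5 TPM, and Benjamini-Hochberg adjustment over all 12526 genes tested. Calls needed an adjusted p no higher than 0.05 and a change of 1.5-fold or more. Members below the filter were read from a fit of all genes above 0 TPM. The model was tested on simulated data. Pseudogenes were aligned with the parent's coding sequence in GENCODE transcripts of GRCm38 (Biopython 1.88, Python 3.11.15). Copies under other names were found with BLAST 2.17.0, and windows of 50 bases were searched in all annotated transcripts.

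Named pseudogenes were those called, the 10 with the highest mean TPM, and those with an all-or-none pattern by genotype (at most 0.5 against at least 1 TPM) or by number, each with its parent. Others are marked as chosen after their values were seen. The members and lists were chosen with earlier results of these data known. Deviations from the group means correlated between the LV and RV samples of a number by 0.657, 0.321 and 0.457 in WT-PLN hearts, so the numbers were read as pairs there, from the data and not from the labels. In R14del-PLN hearts they correlated by 0.389, 0.230 and 0.0542, and the numbers were not read as pairs. Number 1 of R14del-PLN, at 0.389, was above number 2 of WT-PLN, at 0.321, so this reading is uncertain. Alternatives were pseudocounts of 0.5 and 0.1, a filter at 1 TPM and none, removal of mitochondrially encoded genes, quantile normalization, scaling to the upper quartile, no trend, a replicate block, the 6 samples of a comparison, adjusted p alone, and each sample left out. After the values were seen, 2 more were added, each without a pair of samples.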

Additional observations from a re-analysis of the deposited data

How the results depend on the processing

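Rpl34-ps1 and Rpl34 were called in both ventricles under all 24 alternatives run on their fold changes, with Rpl34-ps1 between 7.28 and 10.4 on the log2 scale. The number of pseudogenes called in LV, 1 in the fit described, was 2 with pseudocounts of 0.5 and 0.1, quantile normalization, removal of mitochondrially encoded genes, the 6 samples alone, and without LV replicate 3 and RV replicate 2 of R14del-PLN, each time with Rpl34-ps2 added. In RV it was 2 with a pseudocount of 0.1 and without that pair of samples, with Rpl34-ps2 added. Without both WT-PLN samples of replicate 1, it was 2 in each ventricle (Rpl17-ps5 added), parents called were 2 and family sums called 1 in each ventricle (Rpl29 added), and 1 pseudogene (Rpl14-ps1) was called between ventricles of WT-PLN hearts. Both settings that leave out a pair of samples were chosen after the data were seen. The WT-PLN samples of replicate 1 held Rpl29 at 202 TPM in LV and 191 TPM in RV, against 20.25 to 28.57 TPM in the other WT-PLN samples. Leaving them out thus fixed the added call of Rpl29, as it did that of Rpl17-ps5. Without this pair the change of Rpl14-ps1 between ventricles was also raised, so its pass is no support. With each sample left out in turn, pseudogenes called ran from 1 to 2 in each ventricle, parents from 1 to 2 and family sums from 0 to 1, where leaving out LV replicate 2 of R14del-PLN added Rpl30 in both ventricles. That sample held Rpl30 at 66.8 TPM, against 143.5 and 197.9 TPM in the other LV samples of R14del-PLN. Leaving it out raises the LV change and narrows the spread shared by both ventricles, so these passes are no support. In the fit of all samples, the sums of Rpl29 changed by 1.77 in LV and 1.69 in RV, and those of Rpl30 by 0.56 and 0.77. With copies under other names added to the sums, the changes were -0.26 and -0.36 for Rpl29 and -0.21 in each ventricle for Rpl30. Comparisons between ventricles of R14del-PLN hearts and the interaction gave 0 calls under all 25 alternatives, all-or-none patterns by genotype at 5 TPM also numbered 0, and Rpl34-ps2 could not be tested with the 1 TPM filter. The cause of these changes was not tested.

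With the replicate number as a block, 2 pseudogenes were called in LV (Rpl34-ps2 added) and 1 between ventricles of WT-PLN hearts (Rpl14-ps1), and the block changed no other count of calls. Between genotypes the numbers share only a label, since the correlations of deviations were -0.0209, 0.156 and 0.0919 in LV and 0.061, 0.219 and 0.133 in RV.

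Some fold changes that were not called turned sign. With quantile normalization, the log2 fold change in LV was 0.0563 for Rpl31-ps8, 0.0241 for Rpl10, 0.0562 for Rpl17, 0.018 for Rps23 and 0.0161 for Rps6, and in RV 0.0247 for Rpl27-ps3, 0.0336 for Rpl10, 0.036 for Rpl31 and 0.0442 for Rps6. With upper quartile scaling, the LV value was 0.0658 for Rpl31-ps8, 0.0196 for Rpl10, 0.0827 for Rpl17, 0.0054 for Rps2, 0.0389 for Rps23 and 0.0213 for Rps6. Without mitochondrially encoded genes, Rpl31 was at 0.0001 in RV. Without both WT-PLN samples of replicate 1, RV values were -0.20 for Rpl14-ps1, 0.0552 for Rpl27-ps3 and 0.0184 for Rpl31, and Rpl17 was at 0.0604 in LV. Without LV replicate 3 and RV replicate 2 of R14del-PLN, RV values were -0.27 for Rps13-ps1, 0.0006 for Rpl28 and -0.0784 for Rps23. With each sample left out in turn, LV values ranged from -0.14 to 0.0103 for Rpl31-ps8, from -0.37 to 0.0583 for Rpl10, from -0.14 to 0.0604 for Rpl17, from -0.36 to 0.0465 for Rpl27, from -0.43 to 0.13 for Rps12, from -0.34 to 0.0487 for Rps23 and from -0.35 to 0.0615 for Rps6. RV values ranged from -0.20 to 0.72 for Rpl14-ps1, from -0.30 to 0.20 for Rpl27-ps3, from -0.27 to 2.77 for Rps13-ps1, from -0.0958 to 1.84 for Rps19-ps6, from -0.46 to 0.26 for Rpl10, from -0.0982 to 0.12 for Rpl17, from -0.51 to 0.0006 for Rpl28, from -0.14 to 0.0851 for Rpl31, from -0.0784 to 0.36 for Rps23 and from -0.15 to 0.0321 for Rps6. The cause was not tested, and TPM hold no read numbers by which depth could be judged.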
